A study of Mus with 12 samples.

Results

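The response of kidneys without functional Apobec1 to cisplatin was measured in 6 of the 12 arrays of the series, 3 from KO AKI mice and 3 from KO control mice. KO mice were male, 6 months old and on a C57Bl/6j background, with a homozygous whole-body disruption of Apobec1 that KO AKI and KO control shared. KO AKI mice received cisplatin in saline at 15 mg/kg and KO control mice received saline. Kidneys were taken on day 3 by the labels and by the microarray methods, while the general methods of the model give 4 days. The other 6 arrays, 3 WT AKI and 3 WT control, came from wild-type males of that age and background given the same treatments. By the labels, WT mice were bought and KO mice were raised in house. Each array (Clariom S, which reads many probes per gene) held the RNA of 1 kidney sample and gave a log2 signal, so a difference of 1 is a 2-fold change. All 19505 genes with a named probe set were compared, each with its brightest probe set.

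Cisplatin is a platinum drug that crosslinks DNA, and it accumulates in the proximal tubule, the segment that reabsorbs most of the filtered salt, sugar, amino acids and phosphate. Injured tubule cells are known to lose transporter transcripts and to switch on damage markers, p53 and oxidative stress targets, cytokines and, in surviving cells, the cell cycle. APOBEC1 is a cytidine deaminase best known for editing the mRNA of apolipoprotein B.

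Apobec1 itself had log2 signals of 9.75, 7.33 and 8.48 in KO AKI kidneys, against 7.58, 7.50 and 7.66 in KO control kidneys (log2 fold change 0.94 ± 0.44 SE, adjusted p = 0.127, 95% interval -0.000712 to 1.88). In WT kidneys its signals were 8.97, 8.56 and 8.38 in WT AKI, against 7.18, 6.63 and 7.33 in WT control. All 12 lay above background, taken on each array as the level that 95% of the 23 antigenomic sets, which match no mouse transcript, stay under. The part of the transcript that the probe set reads is not given in the sources used here, so this signal does not check the genotype, and KO stands for the label. Without KO AKI replicate 2, Apobec1 passed the test (log2 fold change 1.54, adjusted p = 0.00358) and likewise with array weights (log2 fold change 1.14, adjusted p = 0.0226).

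Between 44.3% and 47.0% of the genes lay above background on each array. Umod, the uromodulin of the thick ascending limb, was bright on all 6 KO arrays, between 17.79 and 18.56. Some other kidney genes, given below, were far lower in KO AKI than in KO control. Markers of fat (7 genes), adrenal (7) and skeletal muscle (7) were mostly below background, with 5, 7 and 6 of them above it on no KO array. Liver genes were different. KO AKI replicate 2, and to a lesser extent replicate 3, carried liver transcripts, which are described with the acute phase genes.

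In KO kidneys 2996 genes (15.4% of all tested) were upregulated by cisplatin and 2449 (12.6%) were downregulated at a Benjamini-Hochberg adjusted p under 0.05 from limma. Transcripts of tubule damage, p53 targets, acute phase proteins and early response genes were among the upregulated genes, and transporters and enzymes of the nephron among the downregulated ones. Changes above 4-fold were found for 438 upregulated and 414 downregulated genes, and changes above 32-fold for 29 and 27. All 3 KO AKI arrays lay above all 3 KO control arrays for 4443 genes (22.8%) and below them for 3632 (18.6%). Among the called genes, 237 upregulated genes were above background on all 3 KO AKI arrays and on no KO control array. The reverse, on in KO control and off in KO AKI, held for 165 downregulated genes, while 1532 called genes were above background on no KO array.

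Bright genes fell more often than dim ones. The genes above background on all 3 KO control arrays were ranked by KO control level in 4 parts of equal size. Of the 2102 in the brightest part, 677 (32.2%) were downregulated and 301 (14.3%) upregulated. In the dimmest part, 323 of 2103 (15.4%) were downregulated and 370 (17.6%) upregulated. Of the 10212 genes above background on no KO control array, 5.2% were downregulated, a share that the background itself limits. The split between directions moved with scaling: 55.0% of calls were upregulated as deposited, and 41.9% after median centring (2290 up and 3178 down), where the median log2 fold change of all genes was -0.07, against 0.06 as deposited. It also moved with a background filter: of the 9686 genes above background on at least 3 arrays, 1932 were called up and 2017 down. A fit of only the 6 KO arrays called 3607 genes, and an unpaired t-test of these arrays, after Benjamini-Hochberg adjustment, called 662.

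**Figure D1:**
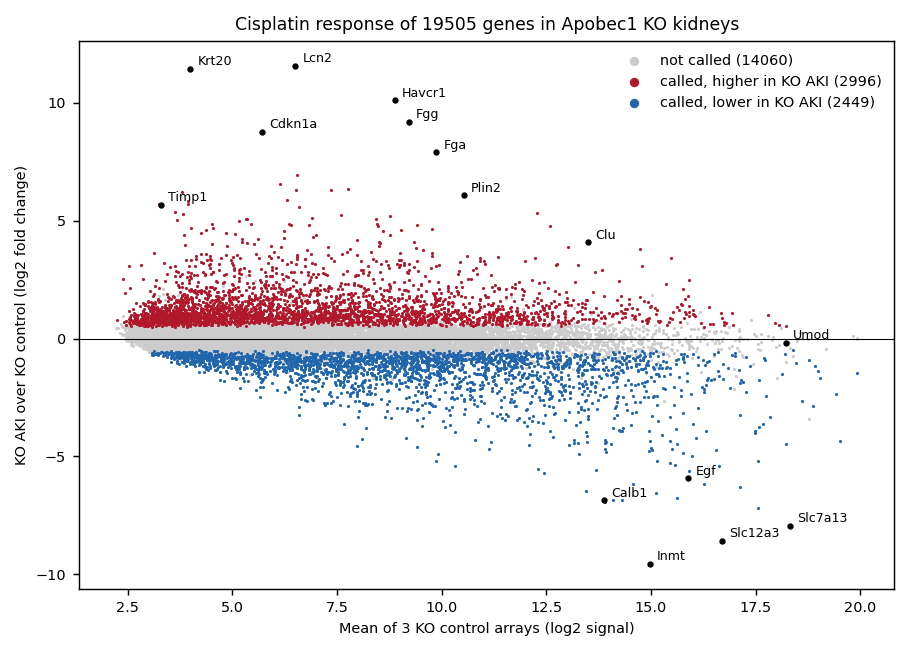
Each point is 1 of 19505 genes, with its mean log2 signal over 3 KO control arrays on the x axis and its log2 fold change, KO AKI over KO control, on the y axis, and red and blue points were called at an adjusted p under 0.05. The largest rise (Lcn2, 11.57) started from a dim gene and the largest falls (Inmt -9.55, Slc12a3 -8.59) from bright ones, while Umod lay near 0. Fold changes of genes not above background in a group are fitted values.

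The largest rise was that of Lcn2, which encodes the iron-carrier-binding protein lipocalin 2 (NGAL) and is a marker of tubule damage, with log2 signals of 17.05, 19.25 and 17.93 in KO AKI kidneys, against 6.31, 6.90 and 6.31 in KO control kidneys (log2 fold change 11.57 ± 0.55 SE, adjusted p = 4.35e-08). It was above background on 1 of 3 KO control arrays. Havcr1, which encodes the injury molecule KIM-1, had 18.66, 19.51 and 18.75 in KO AKI kidneys, against 9.25, 9.08 and 8.29 in KO control kidneys (log2 fold change 10.10 ± 0.50 SE, adjusted p = 5.69e-08). In both genes every KO AKI array lay far above every KO control array. Krt20, a keratin, was above background on no KO control array and had 12.34, 19.05 and 14.89 in KO AKI, against 4.37, 3.97 and 3.63 in KO control, a rise of at least 9.07 on the log2 scale when set against background (adjusted p = 2.4e-05). Its KO AKI arrays were far apart, with replicate 2 the highest and replicate 1 the lowest.

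Of 32 measured genes of tubule injury, 30 rose and 0 fell, and all 32 had a mean above KO control (median log2 fold change 3.06, against 0.06 over all genes, of which 15.4% rose). Tnfrsf12a, the receptor for the cytokine TWEAK, had 13.12, 15.89 and 13.22 in KO AKI, against 7.55, 8.10 and 7.61 in KO control (log2 fold change 6.32 ± 0.55 SE, adjusted p = 5.14e-06). Clu, which encodes the secreted chaperone clusterin, rose to nearly the same level on the 3 KO AKI arrays, with 17.69, 17.33 and 17.70 in KO AKI, against 13.91, 13.68 and 12.90 in KO control (log2 fold change 4.08 ± 0.33 SE, adjusted p = 3.1e-06). Timp1, an inhibitor of matrix proteases, was above background on no KO control array and had 8.90, 8.98 and 9.03 in KO AKI, against 3.35, 3.40 and 3.12 in KO control, a rise of at least 2.61 (adjusted p = 1.49e-09). The members that missed the threshold, named here after their values were seen, were Ccn2, at 0.59, and Ereg, above background on no KO array. The list median was 2.90, 3.67 and 3.05 on KO AKI replicates 1, 2 and 3, and 29 or 30 members rose without any 1 of these arrays.

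Fibrinogen genes were among the largest rises. Fgg, the gamma chain of the clotting protein fibrinogen, had 17.83, 18.57 and 18.80 in KO AKI kidneys, against 9.14, 9.35 and 9.14 in KO control kidneys (log2 fold change 9.19 ± 0.84 SE, adjusted p = 8.2e-06). Fga, the alpha chain, had 17.27, 17.997 and 18.01 in KO AKI, against 10.13, 9.53 and 9.94 in KO control (log2 fold change 7.89, adjusted p = 1.09e-05). Fgb, the beta chain, had 11.99, 14.92 and 13.55 in KO AKI, against 6.54, 6.19 and 6.93 in KO control (log2 fold change 6.93, adjusted p = 4.51e-05). The 3 KO AKI arrays agreed to within 1 log2 unit in Fgg and Fga and not in Fgb, where replicate 1 was lowest. Of 22 complement and acute phase genes, 14 rose and 0 fell (median 1.82). Cp, the copper-binding ferroxidase ceruloplasmin, had 15.94, 16.02 and 15.72 in KO AKI, against 12.99, 12.47 and 12.81 in KO control (log2 fold change 3.14, adjusted p = 4.92e-07). Hp, the hemoglobin-binding protein haptoglobin, was above background on no KO control array and had 5.78, 13.03 and 9.16 in KO AKI, against 5.49, 5.11 and 5.08 in KO control (at least 2.97, adjusted p = 0.0199). The call of Hp was lost without KO control replicate 2 (adjusted p = 0.0558) or 3 (adjusted p = 0.0585). Without KO AKI replicate 2, 12 of the 22 rose, against 14 with all arrays.

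Haptoglobin and fibrinogen are also made by the liver, and liver transcripts differed sharply between the KO AKI arrays. Alb, serum albumin, had 9.41, 18.53 and 15.40 in KO AKI, against 12.49, 13.75 and 13.25 in KO control (log2 fold change 1.28, adjusted p = 0.578), so that replicate 1 was the lowest and replicate 2 the highest of all 6. Ahsg, the liver glycoprotein fetuin-A, had 5.89, 13.30 and 9.25 in KO AKI, against 4.59, 5.12 and 5.44 in KO control, and Apoa1, the main protein of high-density lipoprotein, had 4.20, 9.89 and 6.90 in KO AKI, against 4.73, 5.05 and 4.54 in KO control. Ahsg and Apoa1 were above background on no KO control array. Ttr, the transport protein transthyretin, was lower on all 3 KO AKI arrays, with 8.39, 10.91 and 9.73 in KO AKI, against 11.91, 11.76 and 10.92 in KO control (log2 fold change -1.85, adjusted p = 0.0128, and adjusted p = 0.054 without KO control replicate 1). Of the 7 measured liver markers 2 rose and 1 fell (28.57% and 14.29%, against 15.4% and 12.6% over all genes). The counts were 6 and 1 without KO AKI replicate 1, and 1 and 1 without replicate 3. Without KO AKI replicate 1, Alb (log2 fold change 3.80, adjusted p = 0.00555) and Apoa1 (adjusted p = 0.000669) passed the test. Of 28 genes expressed mainly in liver, a list added after the values were seen and holding 5 of the 7 earlier liver markers, 3, 24 and 14 were above background on KO AKI replicates 1, 2 and 3, against 8, 9 and 9 on the KO control arrays. Of the 28, 9 rose and 1 fell, C8a, a chain of complement component 8 that was above background on all 3 KO control arrays and on no KO AKI array. The log2 of their summed signal was 10.61, 18.88 and 15.67 in KO AKI, against 13.39, 14.26 and 13.80 in KO control. KO AKI replicate 2 was the highest of all 12 arrays in 26 of the 28, and KO AKI replicate 1 lay below all 3 KO control arrays in 18. The order, replicate 1 then 3 then 2, was also the commonest order of distance from KO control among all called genes, described with the spread of the arrays. It held for 1079 of 2996 upregulated and 1033 of 2449 downregulated genes. These were called genes of any kind, liver genes included, and the part of liver transcripts in that order was not tested.

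**Figure D2:**
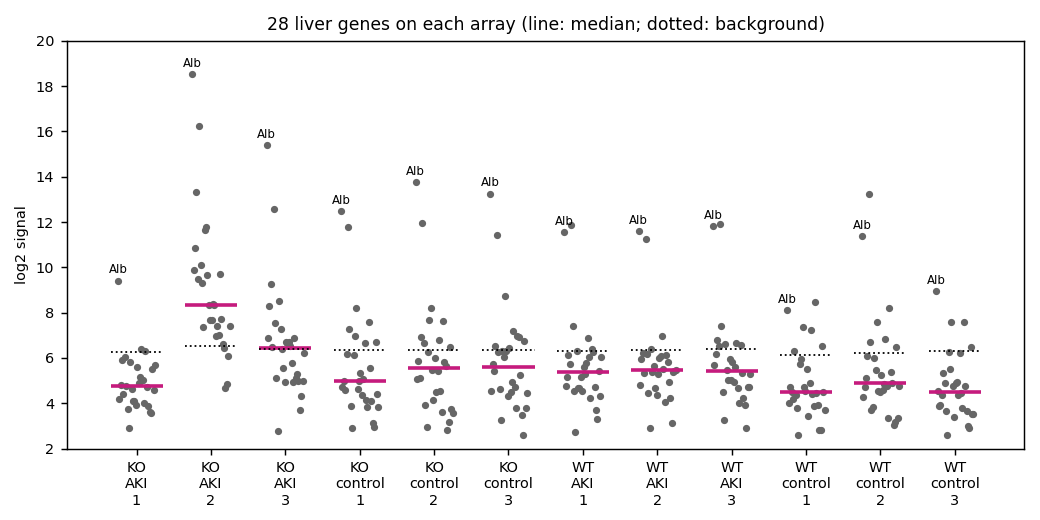
The log2 signals of 28 liver genes are plotted on each of the 12 arrays, with the median as a line, the background of the array dotted and Alb named. KO AKI replicate 2 has 24 of the 28 above background and KO AKI replicate 1 has 3.

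Targets of p53, the transcription factor that answers DNA damage, rose in 25 of 35 cases and fell in 2 (median 2.40). Cdkn1a, which encodes the cell cycle inhibitor p21, was above background on no KO control array and had 13.58, 15.59 and 14.23 in KO AKI kidneys, against 5.69, 5.55 and 5.88 in KO control kidneys, a rise of at least 8.11 (adjusted p = 1.98e-08). Eda2r, a receptor of the TNF receptor family, had 9.49, 10.76 and 9.78 in KO AKI, against 4.002, 3.62 and 3.77 in KO control (at least 3.66, adjusted p = 2.67e-07). Ephx1, an epoxide hydrolase, had 13.66, 14.61 and 14.43 in KO AKI, against 9.84, 9.48 and 8.89 in KO control (log2 fold change 4.83, adjusted p = 4.75e-07). In these genes every KO AKI array lay well apart from every KO control array. Against the majority, Sesn1, a stress-induced regulator of growth signalling, fell, with 7.91, 7.76 and 7.60 in KO AKI, against 8.71, 8.63 and 8.95 in KO control (log2 fold change -1.01, adjusted p = 0.00106).

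Genes under NRF2, the regulator of antioxidant genes, rose in 19 of 22 cases and fell in 1 (median 2.23), and here the KO AKI arrays differed more, with list medians of 1.26, 2.98 and 2.63 on replicates 1, 2 and 3. Srxn1, which encodes sulfiredoxin and repairs oxidized peroxiredoxins, had 9.45, 16.39 and 12.67 in KO AKI, against 7.79, 7.27 and 7.72 in KO control (log2 fold change 5.24 ± 1.11 SE, adjusted p = 0.0038). Hmox1, heme oxygenase 1, had 12.05, 16.17 and 13.68 in KO AKI, against 8.20, 8.97 and 9.12 in KO control (log2 fold change 5.20, adjusted p = 0.000202). Cbr3, a carbonyl reductase, was highest on replicate 3, with 8.05, 9.33 and 12.03 in KO AKI, against 3.60, 3.71 and 4.53 in KO control (at least 3.45, adjusted p = 0.000196). Txnrd1, a thioredoxin reductase, varied less, with 14.55, 16.59 and 15.76 in KO AKI, against 12.08, 12.07 and 12.52 in KO control (log2 fold change 3.41, adjusted p = 5.46e-05).

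Mt2, a metallothionein, which binds metals, had 16.24, 18.63 and 17.91 in KO AKI, against 11.89, 12.31 and 12.61 in KO control (log2 fold change 5.32 ± 0.52 SE, adjusted p = 1.3e-05). Mt1 had 17.16, 19.48 and 19.04 in KO AKI, against 14.64, 15.23 and 14.38 in KO control (log2 fold change 3.81, adjusted p = 0.000146). Of 17 genes of metallothioneins and metal handling, 7 rose and 3 fell (41.18% and 17.65%, against 15.4% and 12.6% over all genes). Slc39a8, a zinc and manganese importer, was among those that fell (log2 fold change -2.56, adjusted p = 1.51e-05). In the responses to amino acid shortage and misfolded protein, 13 of 29 genes rose and 2 fell (median 0.76). Psat1, an enzyme of serine synthesis, had 8.86, 12.48 and 11.13 in KO AKI, against 7.26, 7.11 and 7.49 in KO control (log2 fold change 3.54, adjusted p = 0.000956). Of 13 heat shock genes, 3 rose and 1 fell (23.1% and 7.69%, near the shares over all genes), against 4 and 2 without KO AKI replicate 1, 2 and 1 without replicate 2, and 5 and 2 without replicate 3. Hspb1, a small heat shock protein, was above background on no KO control array and was highest on replicate 2, with 6.70, 12.03 and 7.37 in KO AKI, against 4.61, 3.90 and 4.21 in KO control (at least 2.35, adjusted p = 0.00406).

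Early response genes rose in 19 of 25 cases and fell in 0 (median 2.32). Myc, a growth regulator, had 9.75, 12.35 and 11.55 in KO AKI, against 6.31, 6.31 and 6.44 in KO control (log2 fold change 4.86 ± 0.55 SE, adjusted p = 4.81e-05). Klf6, a zinc finger factor, had 12.51, 14.69 and 12.32 in KO AKI, against 8.76, 8.75 and 8.80 in KO control (log2 fold change 4.40, adjusted p = 2.95e-05). Junb, a subunit of the AP-1 factor, was almost level over the treated mice, with 9.68, 9.52 and 9.84 in KO AKI, against 5.92, 7.09 and 6.57 in KO control (log2 fold change 3.15, adjusted p = 0.000779). Atf3, a stress-induced factor of the ATF family, had 8.37, 9.60 and 9.08 in KO AKI, against 5.73, 6.13 and 6.25 in KO control (at least 2.66, adjusted p = 0.000142).

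Genes of cell division rose while the inhibitor Cdkn1a rose as well. Of 28 cell cycle and mitosis genes 22 rose and 0 fell (median 1.64), and of 23 DNA replication genes 16 rose and 0 fell, against 15.4% of all genes up and 12.6% down. Of these lists 12 and 9 members were above background on no KO array. Mki67, the proliferation antigen Ki-67, had 10.77, 7.86 and 9.46 in KO AKI, against 6.09, 4.99 and 6.52 in KO control (log2 fold change 3.50 ± 0.60 SE, adjusted p = 0.000999). Ccna2, cyclin A2, had 7.30, 5.69 and 6.63 in KO AKI, against 3.54, 3.47 and 3.50 in KO control (at least 0.18, adjusted p = 2.69e-05). Rrm2, the regulated subunit of ribonucleotide reductase, had 7.84, 7.54 and 8.09 in KO AKI, against 5.32, 5.14 and 5.99 in KO control (at least 1.47, adjusted p = 9.29e-05). In Mki67 and Ccna2 replicate 1 was the highest KO AKI array and replicate 2 the lowest. Replicate 1 lay farthest from KO control in 13 of the 22 called cell cycle genes and replicate 2 in 3. Without replicate 1, 10 DNA replication genes rose instead of 16.

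In cell death, of 24 apoptosis genes 12 rose and 2 fell (50% and 8.33%, against 15.4% and 12.6% over all genes). Of 18 necroptosis and pyroptosis genes 4 rose (22.2%, near the 15.4% over all genes) and 0 fell. Of 19 genes of ferroptosis and lipid peroxidation 9 rose and 1 fell (47.37% and 5.263%). Of the necroptosis and pyroptosis genes 9 were above background on no KO array. Tnfrsf10b, the mouse death receptor for TRAIL, had 8.54, 9.79 and 8.91 in KO AKI, against 3.62, 4.16 and 3.67 in KO control (at least 2.73, adjusted p = 8.66e-08). Pmaip1, the BH3-only protein NOXA, had 8.54, 10.31 and 8.97 in KO AKI, against 6.32, 6.58 and 6.51 in KO control (log2 fold change 2.81, adjusted p = 0.000172), while Birc3, an inhibitor of apoptosis protein, had 11.98, 12.13 and 11.93 in KO AKI, against 9.10, 9.12 and 9.33 in KO control (log2 fold change 2.83, adjusted p = 6.46e-07). Mlkl, the membrane effector of necroptosis, had 8.50, 10.97 and 8.94 in KO AKI, against 6.60, 6.31 and 6.97 in KO control (log2 fold change 2.84, adjusted p = 0.000742), with replicate 2 the highest. Acsl4, which loads arachidonate into lipids and favours ferroptosis, had 13.27, 14.88 and 14.77 in KO AKI, against 10.88, 10.85 and 10.98 in KO control (log2 fold change 3.40, adjusted p = 2.06e-05). No KO AKI array overlapped a KO control array in these genes.

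Of 32 cytokine and chemokine genes 15 rose and 3 fell (46.88% and 9.375%, against 15.4% and 12.6% over all genes). Of 20 genes of NF-kB feedback and adhesion 16 rose and 0 fell. The medians of these lists were 0.85 and 2.20, with 13 and 3 members above background on no KO array. Il1rn, the receptor antagonist of interleukin 1, was above background on no KO control array and had 8.47, 9.80 and 8.52 in KO AKI, against 2.80, 3.50 and 3.42 in KO control (at least 2.58, adjusted p = 5.07e-07). Cxcl1, a neutrophil-attracting chemokine, had 8.80, 8.11 and 9.18 in KO AKI, against 3.69, 4.14 and 3.19 in KO control (at least 2.34, adjusted p = 3.76e-07). Lif, a cytokine of the interleukin 6 family, was nearly level over KO AKI, with 7.88, 8.14 and 7.89 in KO AKI, against 4.24, 4.42 and 4.71 in KO control (at least 1.61, adjusted p = 1.57e-07). Cxcl12, a chemokine that holds cells in tissue, fell, with 10.10, 9.07 and 11.29 in KO AKI, against 12.43, 12.59 and 12.36 in KO control (log2 fold change -2.31, adjusted p = 0.00225). Icam1, an adhesion molecule for leucocytes, had 9.54, 9.12 and 8.82 in KO AKI, against 5.37, 5.70 and 5.62 in KO control (at least 2.81, adjusted p = 1.07e-06).

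Macrophage and monocyte genes rose in 9 of 17 cases and fell in 0, and replicate 1 was the farthest from KO control in all 9 of the called ones. Itgam, the integrin subunit CD11b of myeloid cells, was above background on no KO control array and had 9.88, 9.03 and 8.09 in KO AKI, against 3.73, 3.80 and 3.35 in KO control (at least 2.64, adjusted p = 6.23e-07). Lgals3, galectin-3, which tubule cells can make too, had 11.79, 10.81 and 11.03 in KO AKI, against 6.32, 6.57 and 6.29 in KO control (log2 fold change 4.81, adjusted p = 8.05e-08). C1qb, a chain of the complement protein C1q, had 8.79, 6.93 and 8.09 in KO AKI, against 5.31, 6.18 and 5.92 in KO control (at least 1.58, adjusted p = 0.00115). Adgre1, the F4/80 antigen that defines mouse macrophages, had 6.78, 5.97 and 6.86 in KO AKI, against 5.52, 6.28 and 6.34 in KO control (adjusted p = 0.273), and was above background on no KO control array and on 2 of 3 KO AKI arrays. The log2 of the summed signal of the list was 14.11, 12.89 and 13.10 in KO AKI, against 11.74, 12.02 and 11.84 in KO control, with no overlap.

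Of 17 neutrophil genes 7 rose and 0 fell, but 14 of the 17 were above background on no KO array. S100a9, a granule protein of neutrophils, passed background on replicate 2 alone, with 5.83, 8.03 and 5.59 in KO AKI, against 4.63, 4.17 and 4.28 in KO control (at least 0.13, adjusted p = 0.00681). Of 16 T and NK cell genes 1 rose and 2 fell (6.25% and 12.5%, against 15.4% and 12.6% over all genes). Among them 15 were above background on no KO array, and the counts called were 0 and 0 without KO AKI replicate 1 or 3. Of 12 B and plasma cell genes 2 rose and 2 fell (16.67% and 16.67%, near the shares over all genes), with a list median of 0.199. In that list 9 members were above background on no KO array, and the gene given next had its largest fall. Jchain, the joining chain of secreted immunoglobulins, fell, with 12.28, 12.46 and 12.29 in KO AKI, against 14.40, 14.29 and 14.90 in KO control (log2 fold change -2.19 ± 0.36 SE, adjusted p = 0.000688). Of 21 interferon-stimulated genes 7 rose and 1 fell (33.33% and 4.762%). Oasl2, an antiviral protein, had 8.03, 8.06 and 8.15 in KO AKI, against 5.68, 5.80 and 6.30 in KO control (at least 1.73, adjusted p = 0.000284), and Rsad2, the antiviral enzyme viperin, fell, with 6.78, 6.21 and 6.49 in KO AKI, against 8.16, 7.71 and 8.94 in KO control (log2 fold change -1.78, adjusted p = 0.00308).

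Genes of the proximal tubule fell. Of 33 transport and endocytosis genes 23 fell and 1 rose (median -1.79), and of 28 enzymes 21 fell and 0 rose (median -2.44). Inmt, an N-methyltransferase, had the largest fall of all genes, with 6.66, 5.11 and 4.51 in KO AKI kidneys, against 14.84, 15.09 and 14.99 in KO control kidneys (log2 fold change -9.55 ± 0.50 SE, adjusted p = 8.05e-08), and was above background on 1 of 3 KO AKI arrays. Slc34a1, the sodium-phosphate cotransporter of the brush border, had 16.56, 9.31 and 15.43 in KO AKI, against 18.25, 18.52 and 17.93 in KO control (log2 fold change -4.47 ± 1.24 SE, adjusted p = 0.0165, and adjusted p = 0.0514 without KO control replicate 2). Slc5a2, the glucose transporter SGLT2, had 11.85, 7.44 and 10.58 in KO AKI, against 15.20, 15.19 and 15.07 in KO control (log2 fold change -5.20, adjusted p = 0.000246). Lrp2, the endocytic receptor megalin, had 16.54, 13.47 and 15.95 in KO AKI, against 17.73, 17.58 and 17.93 in KO control (log2 fold change -2.43, adjusted p = 0.0053). In each of the last 3 genes, replicate 2 was far below replicates 1 and 3. In RNA of whole kidney, fewer cells of a type and less RNA per cell cannot be told apart.

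Slc7a13, an amino acid transporter, had 14.79, 6.41 and 9.92 in KO AKI, against 18.48, 18.09 and 18.38 in KO control (log2 fold change -7.94 ± 1.33 SE, adjusted p = 0.00083). Slc22a28, of the organic anion transporter family, had 14.17, 6.69 and 10.24 in KO AKI, against 17.52, 17.38 and 17.75 in KO control (log2 fold change -7.18, adjusted p = 0.000872). Slc22a30, of the same family, had 14.31, 7.06 and 11.10 in KO AKI, against 17.21, 16.87 and 17.28 in KO control (log2 fold change -6.30, adjusted p = 0.00173). Slco1a1, an organic anion carrier, had 10.73, 6.80 and 8.19 in KO AKI, against 15.20, 13.75 and 16.39 in KO control (log2 fold change -6.54, adjusted p = 0.000166). Replicate 2 was the lowest array in all of these. Gatm, the first enzyme of creatine synthesis, had 12.12, 8.01 and 10.65 in KO AKI, against 15.81, 15.84 and 16.04 in KO control (log2 fold change -5.64, adjusted p = 7.44e-05). Acmsd, which diverts tryptophan breakdown away from NAD, had 10.42, 4.02 and 7.22 in KO AKI, against 13.67, 14.12 and 14.48 in KO control (log2 fold change -6.87, adjusted p = 0.000482). The 1 called riser of the transport list was Slc6a18, a neutral amino acid transporter, with 15.75, 16.70 and 16.50 in KO AKI, against 15.15, 15.26 and 14.53 in KO control (log2 fold change 1.34, adjusted p = 0.00213).

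Distal segments fell too. Of 14 genes of the distal convoluted and connecting tubule 12 fell and 0 rose, and the 3 KO AKI arrays lay close together, with list medians of -2.60, -3.07 and -2.25 on replicates 1, 2 and 3. Slc12a3, the thiazide-sensitive sodium chloride cotransporter, had 8.88, 7.40 and 8.07 in KO AKI kidneys, against 16.84, 16.73 and 16.54 in KO control kidneys (log2 fold change -8.59 ± 0.30 SE, adjusted p = 1.49e-09). Calb1, the calcium-binding protein calbindin, had 7.56, 5.56 and 7.92 in KO AKI, against 13.59, 13.72 and 14.31 in KO control (log2 fold change -6.86, adjusted p = 5.47e-07). Slc8a1, a sodium-calcium exchanger, had 6.82, 5.53 and 6.95 in KO AKI, against 11.12, 11.14 and 11.12 in KO control (log2 fold change -4.69, adjusted p = 8.77e-07). Kl, which encodes the FGF23 co-receptor klotho, had 12.96, 8.15 and 11.85 in KO AKI, against 15.84, 16.005 and 16.12 in KO control (log2 fold change -5.001, adjusted p = 0.00072), with replicate 2 the lowest.

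In the thick ascending limb 8 of 14 genes fell and 0 rose. Egf, epidermal growth factor, had 11.56, 7.65 and 10.66 in KO AKI, against 16.10, 16.27 and 15.30 in KO control (log2 fold change -5.93, adjusted p = 6.53e-05), Kcnj1, the potassium channel ROMK, had 11.76, 9.16 and 11.94 in KO AKI, against 14.40, 14.21 and 13.99 in KO control (log2 fold change -3.25, adjusted p = 0.000697). Casr, the calcium-sensing receptor, had 9.29, 6.99 and 8.77 in KO AKI, against 12.26, 12.08 and 11.79 in KO control (log2 fold change -3.69, adjusted p = 6.41e-05). Umod, of the same segment, had 18.37, 17.79 and 17.96 in KO AKI, against 18.26, 18.56 and 17.84 in KO control (log2 fold change -0.18, adjusted p = 0.578, 95% interval -0.644 to 0.289), and the arrays overlapped. Slc12a1, the furosemide-sensitive cotransporter, had 16.46, 12.13 and 15.99 in KO AKI, against 17.16, 16.98 and 16.82 in KO control and missed the threshold (log2 fold change -2.12, adjusted p = 0.0581), which it passed without KO AKI replicate 1 (log2 fold change -2.92, adjusted p = 0.00976) or 3 (log2 fold change -2.69, adjusted p = 0.0343) and after median centring (log2 fold change -2.25, adjusted p = 0.0439). Of 13 principal cell genes of the collecting duct 7 fell, and of 14 intercalated cell genes 4, with none called up in either list. Aqp4, a water channel, had 9.01, 7.55 and 7.68 in KO AKI, against 12.90, 11.74 and 11.70 in KO control (log2 fold change -4.03, adjusted p = 4.04e-05). Aqp2, the vasopressin-regulated water channel, had 11.56, 10.56 and 13.21 in KO AKI, against 13.46, 13.31 and 11.98 in KO control (log2 fold change -1.14, adjusted p = 0.147, and log2 fold change -1.86, adjusted p = 0.0129 without KO AKI replicate 3).

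In the glomerular filter, of 11 podocyte genes 4 fell and 0 rose, with Nphs1, the slit diaphragm protein nephrin, at 7.87, 7.91 and 8.09 in KO AKI, against 8.14, 8.29 and 7.79 in KO control (log2 fold change -0.12, adjusted p = 0.706, 95% interval -0.563 to 0.324). Col4a3, a collagen chain of the glomerular basement membrane, fell, with 12.35, 10.12 and 11.69 in KO AKI, against 13.91, 13.12 and 13.93 in KO control (log2 fold change -2.27, adjusted p = 0.00246). Of 19 endothelial genes 5 fell and 3 rose (26.3% and 15.8%, against 12.6% and 15.4% over all genes). Kdr, the VEGF receptor 2, had 9.98, 9.80 and 10.41 in KO AKI, against 11.89, 12.30 and 12.57 in KO control (log2 fold change -2.19, adjusted p = 0.000189). Emcn, endomucin, had 10.62, 10.52 and 10.78 in KO AKI, against 12.36, 12.61 and 12.55 in KO control (log2 fold change -1.87, adjusted p = 4.54e-05). Both were at similar levels on all 3 KO AKI arrays. Plat, tissue plasminogen activator, rose, with 11.85, 13.62 and 12.43 in KO AKI, against 8.99, 8.90 and 9.14 in KO control (log2 fold change 3.62, adjusted p = 1.32e-05). Of 17 nephron transcription factors 9 fell and 3 rose (52.94% and 17.65%, the rises near the share over all genes). Sox9, which marks repairing tubule cells, rose, with 7.94, 11.87 and 7.81 in KO AKI, against 4.74, 4.29 and 4.57 in KO control (at least 2.85, adjusted p = 0.000648).

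**Figure D3:**
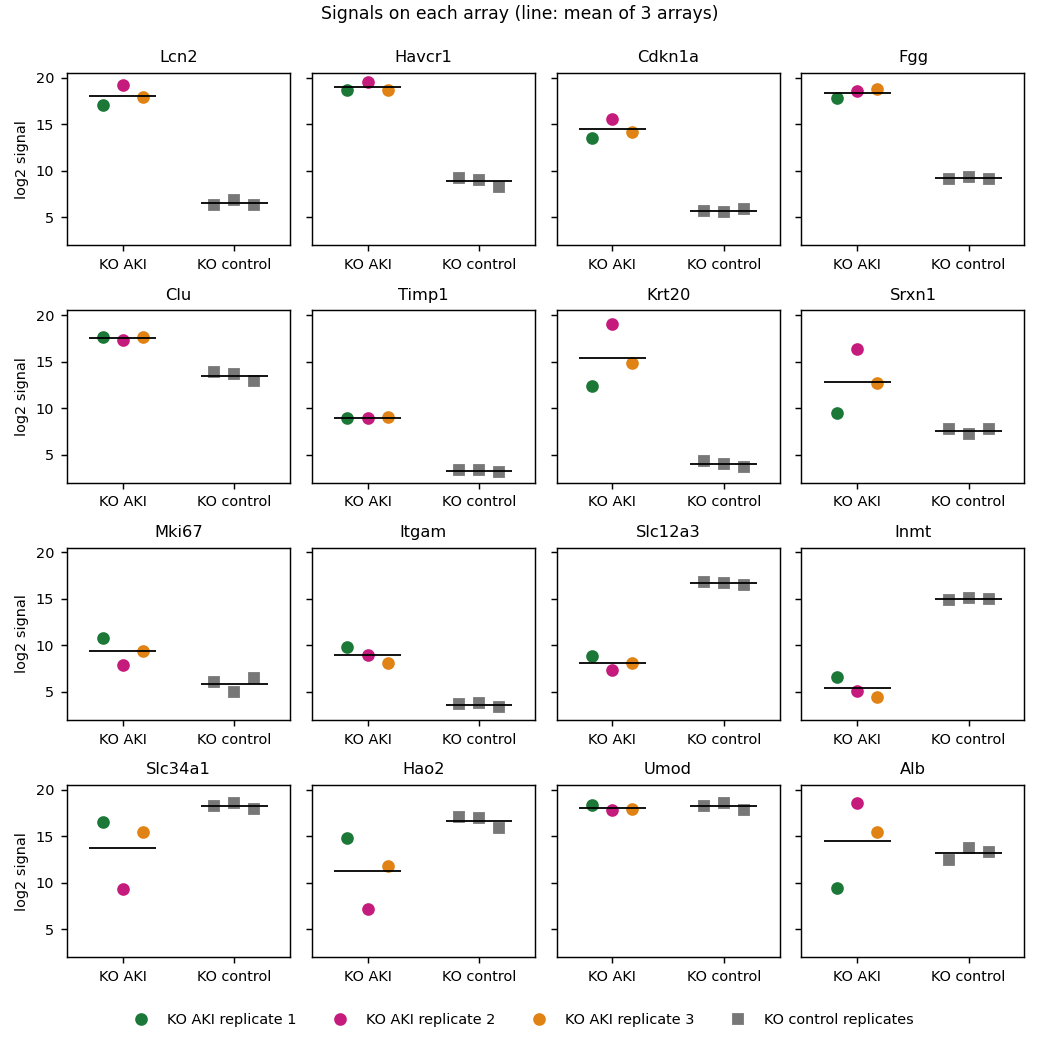
The log2 signals of 16 genes are plotted for the 3 KO AKI arrays, coloured by replicate, and the 3 KO control arrays in grey, with a line at each mean. Clu and Timp1 are tight over KO AKI, Slc34a1 and Hao2 are lowest on replicate 2, Mki67 and Itgam are highest on replicate 1, and Alb spans 9.41 to 18.53 within KO AKI.

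Lipid genes moved both ways. Of 29 fatty acid oxidation genes 9 rose and 6 fell, of 29 genes of lipid uptake, activation and droplets 10 rose and 4 fell, and of 20 genes of cholesterol and fatty acid synthesis 0 rose and 9 fell. The share that rose was 31.03% in fatty acid oxidation and 34.48% in lipid uptake, activation and droplets, against 15.4% of all genes. The share that fell was 20.7% in fatty acid oxidation and 13.8% in lipid uptake, activation and droplets. It was 45% in cholesterol and fatty acid synthesis, against 12.6% of all genes. Plin2, which coats lipid droplets, had 15.14, 18.89 and 15.80 in KO AKI kidneys, against 10.66, 10.19 and 10.75 in KO control kidneys (log2 fold change 6.08 ± 0.77 SE, adjusted p = 0.000115). Angptl4, an inhibitor of lipoprotein lipase, had 12.39, 14.37 and 12.65 in KO AKI, against 8.18, 8.45 and 9.18 in KO control (log2 fold change 4.54, adjusted p = 3.49e-05). Pdk4, which blocks pyruvate entry into the mitochondrion, had 10.15, 16.15 and 12.07 in KO AKI, against 6.03, 5.67 and 7.83 in KO control (log2 fold change 6.28, adjusted p = 0.00264). Cyp4a14, a fatty acid hydroxylase, had 16.31, 18.14 and 17.60 in KO AKI, against 12.78, 11.44 and 13.52 in KO control (log2 fold change 4.77, adjusted p = 0.00039). Replicate 2 was the highest in all 4 and replicate 1 the lowest. Fabp3, a fatty acid-binding protein, fell, with 10.24, 8.12 and 10.11 in KO AKI, against 13.52, 13.48 and 13.32 in KO control (log2 fold change -3.95, adjusted p = 2.79e-05), as did Acat1, a mitochondrial thiolase, with 13.91, 11.87 and 14.02 in KO AKI, against 15.64, 15.51 and 16.01 in KO control (log2 fold change -2.45, adjusted p = 0.00109). Cyp51, lanosterol demethylase of cholesterol synthesis, had 11.90, 10.16 and 10.56 in KO AKI, against 14.46, 14.37 and 14.73 in KO control (log2 fold change -3.65, adjusted p = 1.02e-05). Scd1, a fatty acid desaturase, had 11.43, 8.87 and 10.20 in KO AKI, against 13.35, 13.53 and 12.92 in KO control (log2 fold change -3.10, adjusted p = 0.00038).

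Of 28 oxidative phosphorylation genes 12 fell and 0 rose, with replicate 2 the farthest from KO control in all 12. Ndufs1, a subunit of complex I, had 12.71, 11.58 and 12.85 in KO AKI, against 14.03, 13.93 and 13.87 in KO control (log2 fold change -1.56, adjusted p = 0.00119). Uqcrc2, of complex III, had 11.83, 10.94 and 11.69 in KO AKI, against 13.21, 12.78 and 13.11 in KO control (log2 fold change -1.55, adjusted p = 0.000391). Of 19 glycolysis genes 4 rose and 5 fell (21.1% and 26.3%), against 2 and 2 without KO AKI replicate 2 and 2 and 5 without replicate 3. Slc2a1, the glucose transporter GLUT1, had 12.86, 14.95 and 13.85 in KO AKI, against 11.82, 11.63 and 11.60 in KO control (log2 fold change 2.20, adjusted p = 0.000868). In gluconeogenesis and amino acid breakdown 4 of 28 genes rose and 15 fell (14.3% and 53.6%, against 15.4% and 12.6% over all genes). Arg2, the mitochondrial arginase, had 9.87, 14.13 and 12.56 in KO AKI, against 6.35, 6.19 and 6.41 in KO control (log2 fold change 5.87, adjusted p = 9.42e-05). Slc38a3, a glutamine transporter that is induced in acidosis, was highest on replicate 3, with 12.10, 10.51 and 15.11 in KO AKI, against 9.32, 8.52 and 7.63 in KO control (log2 fold change 4.08, adjusted p = 0.00241). Dao, D-amino acid oxidase, fell, with 12.82, 8.50 and 10.89 in KO AKI, against 14.12, 14.26 and 13.94 in KO control (log2 fold change -3.37, adjusted p = 0.00355).

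Of 30 genes of extracellular matrix and its proteases 16 rose and 2 fell. Plaur, the urokinase receptor, had 7.95, 12.003 and 8.95 in KO AKI, against 4.08, 3.93 and 3.82 in KO control (at least 3.28, adjusted p = 8.28e-05). Adamts1, a matrix protease, had 12.99, 14.66 and 12.60 in KO AKI, against 9.12, 9.65 and 9.23 in KO control (log2 fold change 4.08, adjusted p = 8.57e-05). Of 30 growth factor ligands and receptors 6 rose and 13 fell (20% and 43.3%, against 15.4% and 12.6% over all genes). Hbegf, a ligand of the EGF receptor, had 7.91, 7.77 and 8.38 in KO AKI, against 4.47, 5.09 and 5.57 in KO control (at least 1.67, adjusted p = 0.000496), while Egf fell as given above. Of 20 renal hormone and vasoactive genes 4 rose and 6 fell (20% and 30%, against the same 15.4% and 12.6%). Adm, the vasodilator adrenomedullin, had 8.29, 10.51 and 12.56 in KO AKI, against 6.19, 7.19 and 7.27 in KO control (log2 fold change 3.57, adjusted p = 0.00317). Agtr1a, the angiotensin receptor, had 11.16, 9.39 and 10.03 in KO AKI, against 12.54, 12.65 and 13.20 in KO control (log2 fold change -2.60, adjusted p = 0.000283). Of 20 genes of cisplatin transport and detoxification 8 rose and 3 fell (40% and 15%, the falls near the share over all genes). Abcb1b, a drug efflux pump, had 11.76, 12.62 and 12.58 in KO AKI, against 9.06, 9.50 and 8.39 in KO control (log2 fold change 3.34, adjusted p = 8.6e-06), and Slc47a1, the apical exporter MATE1, fell, with 14.66, 13.22 and 14.27 in KO AKI, against 15.94, 15.93 and 15.73 in KO control (log2 fold change -1.82, adjusted p = 0.000938). Of 17 clock genes 2 rose and 3 fell (11.8% and 17.6%, near the shares over all genes), against 4 and 7 without KO AKI replicate 1, and Nr1d1, the repressor REV-ERB alpha, had 8.48, 8.19 and 8.08 in KO AKI, against 10.16, 10.30 and 9.87 in KO control (log2 fold change -1.86, adjusted p = 0.000158).

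Gene families were also taken by symbol. Of 61 cytosolic ribosomal protein genes 53 rose and 0 fell (86.9% up, against 15.4% of all genes, median log2 fold change 1.04), and 49 rose and 0 fell after median centring. Their median was 0.71, 1.30 and 1.08 on KO AKI replicates 1, 2 and 3, and 0.56 in WT kidneys. Rplp0, a stalk protein of the ribosome that is often used as a reference gene, had 14.10, 14.86 and 14.65 in KO AKI, against 12.87, 12.95 and 13.19 in KO control (log2 fold change 1.54, adjusted p = 0.000233). Of 15 tubulin genes 9 rose and 0 fell. Glutathione S-transferases went both ways, with 12 of 21 up and 6 down. UDP-glucuronosyltransferases, which tag compounds for excretion, fell in 7 of 11 cases and rose in 1. Among 375 solute carriers 108 fell and 47 rose (28.8% and 12.5%, against 12.6% and 15.4% over all genes). Olfactory receptors, nearly all below background, had 79 of 1091 called up and 45 down as deposited, but 61 and 75 after quantile normalization and 51 and 79 after median centring.

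**Figure D4:**
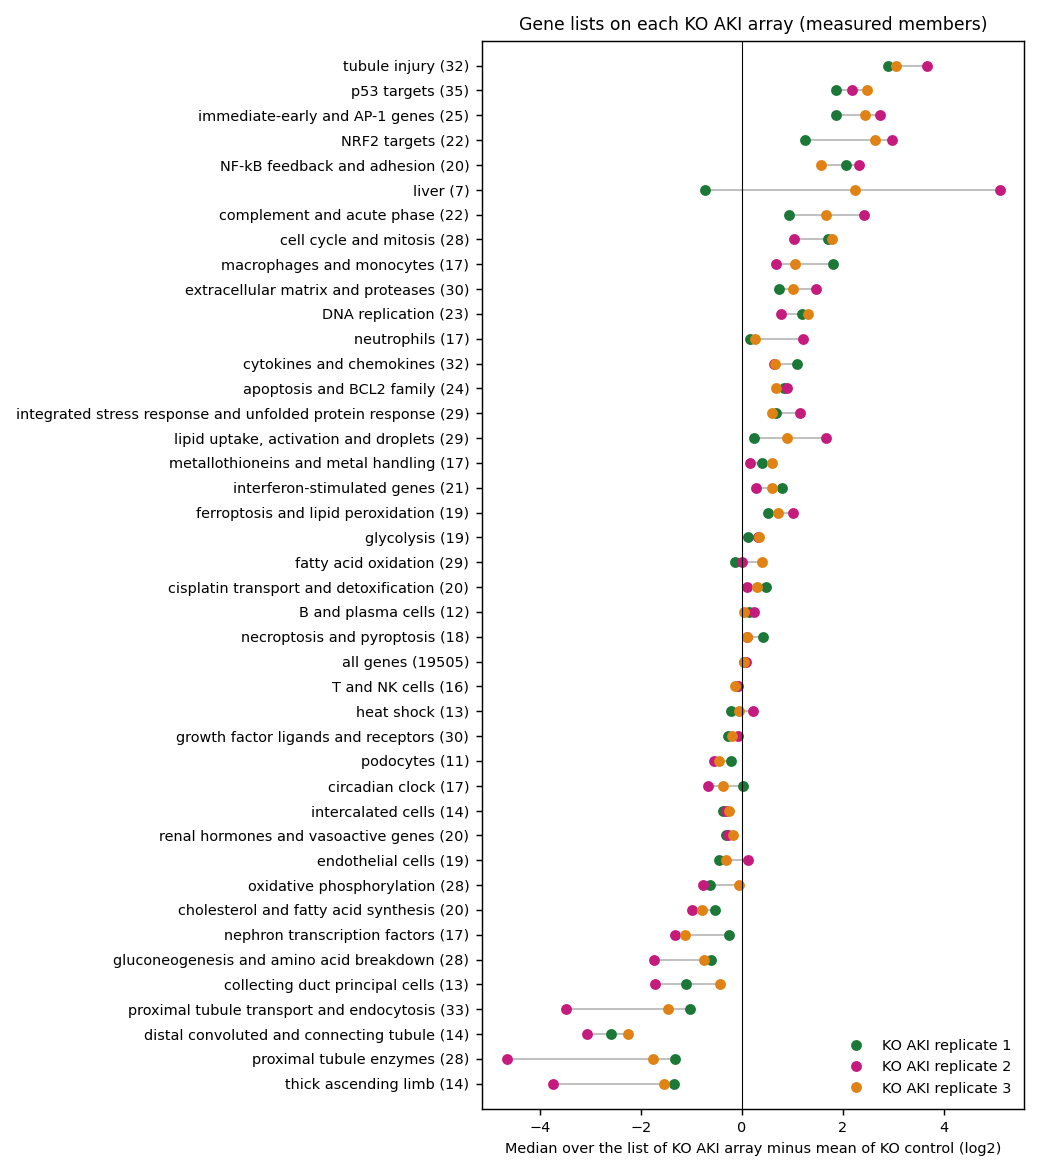
For each gene list, with the number of measured members, a point gives the median over the list of KO AKI replicate 1, 2 or 3 minus the mean of the KO control arrays, on the log2 scale. The liver list runs from -0.73 on replicate 1 to 5.12 on replicate 2, and the proximal tubule enzymes from -1.34 to -4.67, while the distal tubule list stays between -3.07 and -2.25.

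The 3 KO AKI arrays differed in how far they had moved. The SD over the 3 arrays was above 1 for 974 genes in KO AKI and for 34 in KO control, and for 70 in WT AKI and 53 in WT control. Genes that differed more than 2-fold from the KO control mean numbered 1501 up and 1174 down on replicate 1, 2609 and 2365 on replicate 2, and 1857 and 1454 on replicate 3. Differences above 8-fold numbered 178, 774 and 290. Among the called genes replicate 2 lay farthest from KO control in 61.2%, replicate 3 in 21.8% and replicate 1 in 17.0%. Replicate 1 lay nearest in 52.2%. The order 1, 3, 2 held for 1079 upregulated and 1033 downregulated genes, the commonest of the 6 possible orders in each.

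**Figure D5:**
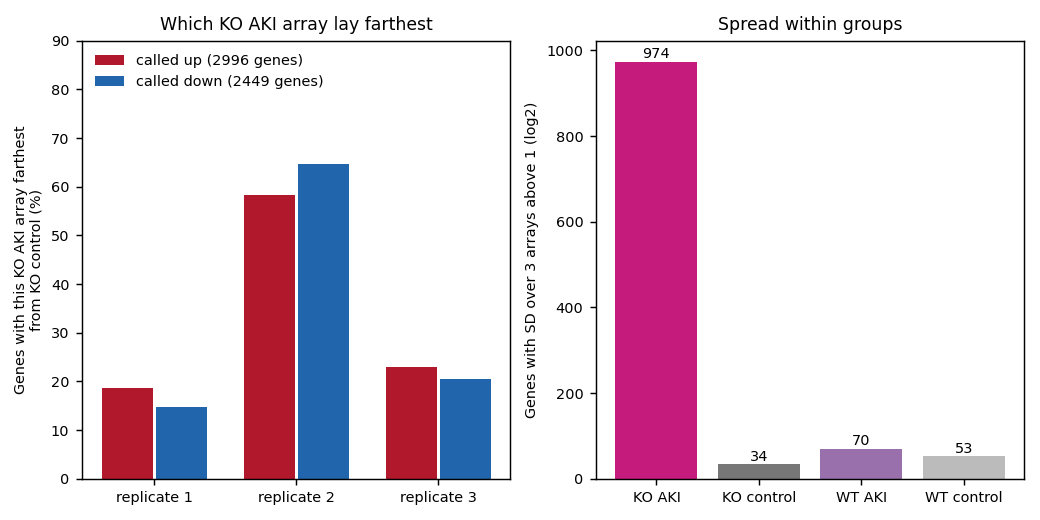
The left panel gives the percentage of upregulated (red) and downregulated (blue) genes in which each KO AKI array lay farthest from KO control. The right panel counts genes with an SD above 1 over the 3 arrays of each group. Replicate 2 leads in both directions, and KO AKI holds 974 such genes against 34 in KO control.

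The 10 called genes with the largest spread included transporters of the proximal tubule and the liver genes Ahsg and Hp. Slc7a12, an amino acid transporter, had 14.72, 5.46 and 10.69 in KO AKI, against 15.69, 15.66 and 13.71 in KO control (SD 4.64 in KO AKI). Slc5a12, a lactate transporter, had 16.47, 8.70 and 15.35 in KO AKI, against 17.48, 17.12 and 17.89 in KO control (SD 4.20). Hao2, a hydroxyacid oxidase of peroxisomes, had 14.76, 7.14 and 11.74 in KO AKI, against 17.03, 16.95 and 15.87 in KO control (SD 3.84). In all 3 genes replicate 1 was the highest KO AKI array and replicate 2 the lowest, and in Slc7a12 replicate 1 overlapped KO control. The call of Slc7a12 was lost on leaving out KO control replicate 1 (adjusted p = 0.0968) or 2 (0.0942) and without KO AKI replicate 2 (0.0554) or 3 (0.0575). That of Slc5a12 was lost without KO control replicate 1 (adjusted p = 0.0893), 2 (0.0754) or 3 (0.105).

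Other large changes were nearly the same in all 3 treated mice. The genes given here were picked among large changes for the smallest spread over KO AKI. Socs2, a feedback inhibitor of cytokine signalling, had 11.76, 11.70 and 11.76 in KO AKI, against 8.48, 8.30 and 8.31 in KO control (SD 0.04 in KO AKI, log2 fold change 3.38). Tsc22d1, a leucine zipper protein, had 18.91, 18.93 and 18.83 in KO AKI, against 15.29, 15.81 and 15.36 in KO control (SD 0.05). Tagln2, an actin-binding protein, had 13.75, 13.45 and 13.91 in KO AKI, against 10.57, 10.55 and 10.22 in KO control, and Ankrd1, a nuclear ankyrin repeat protein, had 9.70, 9.24 and 9.56 in KO AKI, against 6.08, 6.19 and 6.28 in KO control. All these KO AKI arrays lay above KO control, but their closeness and the size of the changes were set by that choice.

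Against the WT response, which came from other mice and other controls, the KO response mostly had the same sign. Of the 2996 upregulated genes 94.4% also had a higher mean in WT AKI than in WT control, and 38.5% were called up there. Of the 2449 downregulated genes 94.7% also had a lower mean in WT AKI, and 31.0% were called down there. Among all 19505 genes, 1684 were called up and 1042 down in the WT response. The KO change was the larger in 85.3% of the upregulated and 88.6% of the downregulated genes, which is in part fixed by choosing genes on the KO values. Over all genes, the slope through 0 on the mean WT response was 0.947, 1.351 and 1.05 for KO AKI replicates 1, 2 and 3. Over the 7432 genes above background on all 12 arrays, the slopes were 1.06, 1.632 and 1.193. These slopes are a description without a test.

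The difference between the responses was called for 6 genes, 2 higher (0.0103%) and 4 lower (0.0205%) in KO. Lcn2 had 15.30, 13.19 and 14.51 in WT AKI, against 7.92, 7.23 and 8.41 in WT control, and its KO response exceeded the WT response by 5.09 on the log2 scale (adjusted p = 0.0478). Ms4a6b, a membrane protein of myeloid cells, had 8.15, 7.93 and 8.27 in KO AKI, against 4.64, 4.49 and 5.03 in KO control, and 6.78, 6.10 and 6.15 in WT AKI, against 5.61, 5.08 and 5.19 in WT control (difference 2.35, adjusted p = 0.0414). It was above background on all 3 KO AKI arrays, 1 of 3 WT AKI arrays and no control array, so the size of this difference rests on values below background. Slc12a3 had 10.57, 11.07 and 11.02 in WT AKI, against 16.10, 16.38 and 16.15 in WT control (difference -3.26, adjusted p = 0.0414). The other 3 were Slc22a27 and Xpnpep2, below background on all KO arrays, and the vomeronasal receptor Vmn1r20, below background on all 3 KO AKI arrays and named here after its values were seen. When single KO AKI arrays were dropped, the count was 337 for replicate 1, 44 for replicate 2 and 1 for replicate 3. It was 0 without any KO control array, WT AKI replicate 2 or 3, or WT control replicate 1 or 3, 11 without WT AKI replicate 1 and 4 without WT control replicate 2. In these 12 limma fits, 1561 to 2950 genes had an unadjusted p under 0.05. The fit pools the spread of all groups, and KO AKI had the widest.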

How the data were processed

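Kidney RNA of 12 mice, 3 per group, was read on Clariom S arrays, with 1 array for each mouse. The deposited log2 signals, 1 per probe set, were made by the authors with Transcriptome Analysis Console, and the background correction and normalization are not given in the sources used here. Of 28846 entries 22206 were not controls, and 19572 of those carried 1 gene symbol in the platform annotation and 2634 none. Where a gene had several probe sets (55 genes), the one with the highest mean was kept, which left 19505 genes. Array signals have no counts, so the number of arrays limits the precision.

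Groups were taken from the labels. Means of the 4 groups were fitted over all 12 arrays with limma 3.58.1 in R 4.3.3 (8 residual and 5.6 prior degrees of freedom), and KO AKI was compared with KO control at a Benjamini-Hochberg adjusted p under 0.05 over all genes. The difference between the KO and WT responses was a contrast of the same fit. The procedure was tested on simulated data with the same spread in all groups, so that test does not cover the wider spread of KO AKI. An exact permutation test of 3 against 3 arrays cannot go below p = 0.1, and p-values measure the spread between these mice. Where all arrays of 1 KO group were at background for a named gene and some arrays of the other were not, a change given for it is a bound, the mean of the other group minus the mean background (95th percentile of 23 antigenomic probe sets per array). For gene lists the members called and the median of the fitted values are given, with no set test, and many genes belong to more than 1 list.

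Genes were named by a rule: Apobec1, the 15 largest rises and falls with no overlap of arrays, of each list at most 4 called members plus 1 against its majority, the 10 called genes with the largest and the 10 with the smallest spread, and the 10 with the smallest p for the difference between responses in each direction. Members and lists were chosen with earlier results of these data known, and the bounds, the gene families and the list of 28 liver genes were added after the values were seen. The deviations of same-numbered KO AKI and KO control arrays correlated at 0.0247, 0.0171 and -0.0879, and the main fit did not pair arrays by replicate number. These correlations cannot show that no batch was shared, since KO AKI arrays also differed in the size of the response. The alternatives were quantile normalization, median centring, array weights, another prior, the replicate block, only the KO arrays, a background filter, every probe set, an unpaired t-test of the KO arrays and leaving out each array. No batch, litter or scan date was given, and promoter sequence was not analysed here.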

Additional observations from a re-analysis of the deposited data

Results flagged for a closer look

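The KO response differed from the WT response in 6 genes by the test of the difference itself (limma, adjusted p under 0.05), as KO minus WT on the log2 scale: Lcn2 by 5.09, Ms4a6b by 2.35, Slc12a3 by -3.26, Slc22a27 by -2.35, Vmn1r20 by -4.16 and Xpnpep2 by -1.94. Vmn1r20, a vomeronasal receptor gene named here after its values were seen, had log2 signals of 6.03, 3.88 and 4.85 in KO AKI, against 10.20, 10.07 and 10.68 in KO control, and 7.92, 8.10 and 8.62 in WT AKI, against 9.20, 9.69 and 9.45 in WT control. Its KO AKI signals were below background. Slc22a27 and Xpnpep2 were above background on no KO array, and Ms4a6b on no control array, so the sizes of these 4 differences are fitted values that rest on signals below background. At an unadjusted p under 0.05 the difference passed for 2020 of 19505 genes.

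Outside the named genes, 690 of 2634 probe sets without a gene symbol were called in KO AKI against KO control (26.2%), 430 up and 260 down.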

How the results depend on the processing

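In KO AKI against KO control, 5445 genes were called, and between 5161 and 5468 under quantile normalization, median centring, array weights, another prior, the replicate block and every probe set. The fit of only the 6 KO arrays called 3607 (2054 up, 1553 down). With genes above background on at least 3 arrays, 9686 genes were tested and 3949 were called (1932 up, 2017 down). The unpaired t-test of the 6 KO arrays called 662 after adjustment (398 up, 264 down). At an unadjusted p under 0.01 and a fold over 2 it called 1246 (758 up, 488 down), where limma called 2981 (1607 up, 1374 down). Keeping KO AKI replicate 1 alone, an alternative chosen after seeing the data, gave 2563 (1446 up, 1117 down), which takes the spread of that array from the other groups although KO AKI spread most. Leaving out 1 array gave 3926 to 5629 calls (2172 to 3049 up, 1754 to 2580 down), with 3098 genes called in all 12 such fits and 0 changes of sign. Array weights of KO AKI replicates 1, 2 and 3 were 0.668, 0.292 and 1.22.

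The difference between the KO and WT responses was called for 6 genes (2 higher, 4 lower in KO), against 2 under quantile normalization (0 higher, 2 lower), 9 under median centring (5 higher, 4 lower), 63 with array weights (31 higher, 32 lower) and 10 with the other prior (3 higher, 7 lower). It was called for 3 with the background filter, chosen after seeing the data (1 higher, 2 lower), and for 0 with the replicate block (0 higher, 0 lower), where limma left 1931 genes at an unadjusted p under 0.05. Leaving out 1 array gave 0 to 337 (0 to 169 higher, 0 to 168 lower), with 1561 to 2950 genes at an unadjusted p under 0.05. The cause of these shifts was not tested.

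With the replicate block, 5161 genes were called in KO AKI against KO control (2841 up, 2320 down), of which 5019 were among the 5445, and 3 of 223 named genes lost their call. Of the 223 named genes 21 lost their call with only the 6 KO arrays and 9 with the other prior, 1 under quantile normalization, 1 under median centring and 4 with array weights, and none of these settings turned a called direction. With 3 arrays per group and no normalization method stated, dim genes and small changes were least certain, as 1532 called genes were above background on no KO array.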
